A study of Mus musculus with 12 samples.

Results

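The neuronal injury and axon regeneration genes described here are 10 genes, Atf3, Gap43, Stmn4, Sox11, Sprr1a, Ecel1, Gadd45a, Klf6, Ddit3 and Chac1, out of 54367 genes in each table. They were taken by name, as the rows whose gene symbol is one of the 10. That rule used no measured value, but the members were chosen with earlier results of these data known. All 12 libraries came from retinas of wildtype C57BL/6 mice of 8 to 12 weeks. In the lasered groups the retina of the right eye had been burned with a 532 nm laser at 4 clock positions (spot size 75 µm, 0.1 s each), an injury used to model neovascularisation, and in the control groups the left eye had no laser. Retinas were taken 3 or 7 days later, with 3 libraries each of day 3 lasered, day 3 control, day 7 lasered and day 7 control eyes. The control eye belongs to a mouse whose other eye was burned, so no group holds an untouched animal. The values are a deposited signal per gene, scaled for gene length and library as TPM values are.

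A neuron whose axon is damaged signals to its nucleus through the kinases DLK and JNK, which switch on transcription factors such as ATF3, SOX11 and KLF6. These in turn are tied to a growth program that includes the growth cone protein GAP-43, stathmins that loosen microtubules, and the small proline-rich protein SPRR1A. A second arm, the integrated stress response, runs through ATF4 to CHOP (the product of Ddit3) and CHAC1 and is linked to neuronal death. In the retina both arms are best known from retinal ganglion cells after optic nerve crush, and several members, Atf3 and Gadd45a among them, are also induced in glia and immune cells.

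RefSeq promoter sequences (GRCm38.p6) matched 8 of the 10 genes, and none was matched for Gap43 or Stmn4. The 4 that follow hold a match to an AP-1 motif (TGANTCA, the site of JUN dimers), to a composite C/EBP and ATF motif (TGATGNAA, the kind of site read by ATF4 and CHOP) or to a TATA box (TATAAA). Each is the 250 bases before the RefSeq start of the gene, 5′ to 3′ on the strand of the gene, and capitals mark matches to those motifs on either strand. Atf3 is chr1:191183334-191183583 (minus strand), inside the span the tables give for the gene because of a longer transcript. Chac1 is chr2:119350992-119351241 (plus), Sprr1a is chr3:92485882-92486131 (minus), and Ddit3 is chr10:127290543-127290792 (plus).
Atf3: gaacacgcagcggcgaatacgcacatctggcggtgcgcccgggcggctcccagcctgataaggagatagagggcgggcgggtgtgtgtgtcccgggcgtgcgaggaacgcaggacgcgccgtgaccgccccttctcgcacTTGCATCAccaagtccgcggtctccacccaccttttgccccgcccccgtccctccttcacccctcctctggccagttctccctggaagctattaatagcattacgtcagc
Chac1: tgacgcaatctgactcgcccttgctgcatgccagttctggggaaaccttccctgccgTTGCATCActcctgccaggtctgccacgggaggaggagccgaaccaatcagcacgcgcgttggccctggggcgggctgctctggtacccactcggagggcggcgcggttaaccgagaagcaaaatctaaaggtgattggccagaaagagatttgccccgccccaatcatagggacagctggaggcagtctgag
Sprr1a: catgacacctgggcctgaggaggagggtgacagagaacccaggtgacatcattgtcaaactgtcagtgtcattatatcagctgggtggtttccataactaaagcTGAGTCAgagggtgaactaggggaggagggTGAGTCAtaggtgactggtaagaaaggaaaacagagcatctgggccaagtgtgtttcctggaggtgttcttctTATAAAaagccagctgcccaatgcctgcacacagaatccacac
Ddit3: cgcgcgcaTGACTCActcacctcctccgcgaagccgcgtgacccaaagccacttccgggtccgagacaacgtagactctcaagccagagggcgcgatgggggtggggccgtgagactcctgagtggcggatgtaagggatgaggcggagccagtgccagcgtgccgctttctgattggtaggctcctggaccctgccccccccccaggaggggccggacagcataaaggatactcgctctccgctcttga

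Sprr1a held 2 AP-1 matches, both TGAGTCA, beginning 146 and 116 bases before the start, and a TATA box beginning 43 bases before it. Ddit3 held 1 AP-1 match, TGACTCA, beginning 242 bases before the start. Atf3 and Chac1 held the same 8 letters, TTGCATCA, the reverse strand of the composite motif, beginning 110 and 193 bases before the start. Over the window from 250 bases before to 50 after the start, AP-1 was matched in 7.81% of 32851 mouse promoters, the composite motif in 3.97% and the TATA box in 13.6%. GC boxes (GGGCGG, some of them overlapping each other) were matched in 5 of the 8 promoters (Atf3, Chac1, Gadd45a, Klf6 and Sox11) and in 35.7% of all. The palindrome TGACGTCA was matched in 0 of the 8 and in 1.79% of all. These are matches of letters, and no binding was measured.

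Sequencing was shallower on day 3, with 9281972 to 12515734 reads assigned to genes in a library as recovered from the values, than on day 7, with 23886137 to 31092387. Rod genes, which define the tissue, had summed signals of 8283 to 23089 in the day 3 libraries and 37543 to 50458 in those of day 7. In lasered replicate 1 of day 3 the rod sum was the lowest of its day, and infiltrating monocyte and neutrophil genes were the highest. Genes of the lens stood out in lasered replicate 2 of day 3 and lasered replicate 1 of day 7. The labels do not say that the 3 samples of a group are separate animals, and the p-values therefore cover only sample-to-sample spread, which may be technical. In whole retina, fewer cells of a type and less RNA per cell cannot be told apart.

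On day 3 all 9 members that could be tested were higher in lasered than in control retinas, as were 68.2% of all genes tested. On day 7 the 9 tested were split, 5 higher and 4 lower, where 61.5% of all genes were higher. Sprr1a on both days and Chac1 on day 3 were tested only because they were high in lasered libraries. Atf3 was 22.9 ± 21.0 (SD, n = 3) in lasered against 1.96 ± 0.662 in control retinas on day 3, and 30.9 ± 3.99 against 15.0 ± 0.841 on day 7. Gap43 and Stmn4 were about 1.5 times their controls on day 3 (ratios of means 1.54 and 1.49) and near their controls on day 7 (0.919 and 0.945). Sprr1a, with no read in any day 3 control, had reads in all 3 lasered retinas of either day. With limma and Benjamini-Hochberg adjustment over all genes, however, 0 of the 10 members passed 0.05 on either day.

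**Figure D1:**
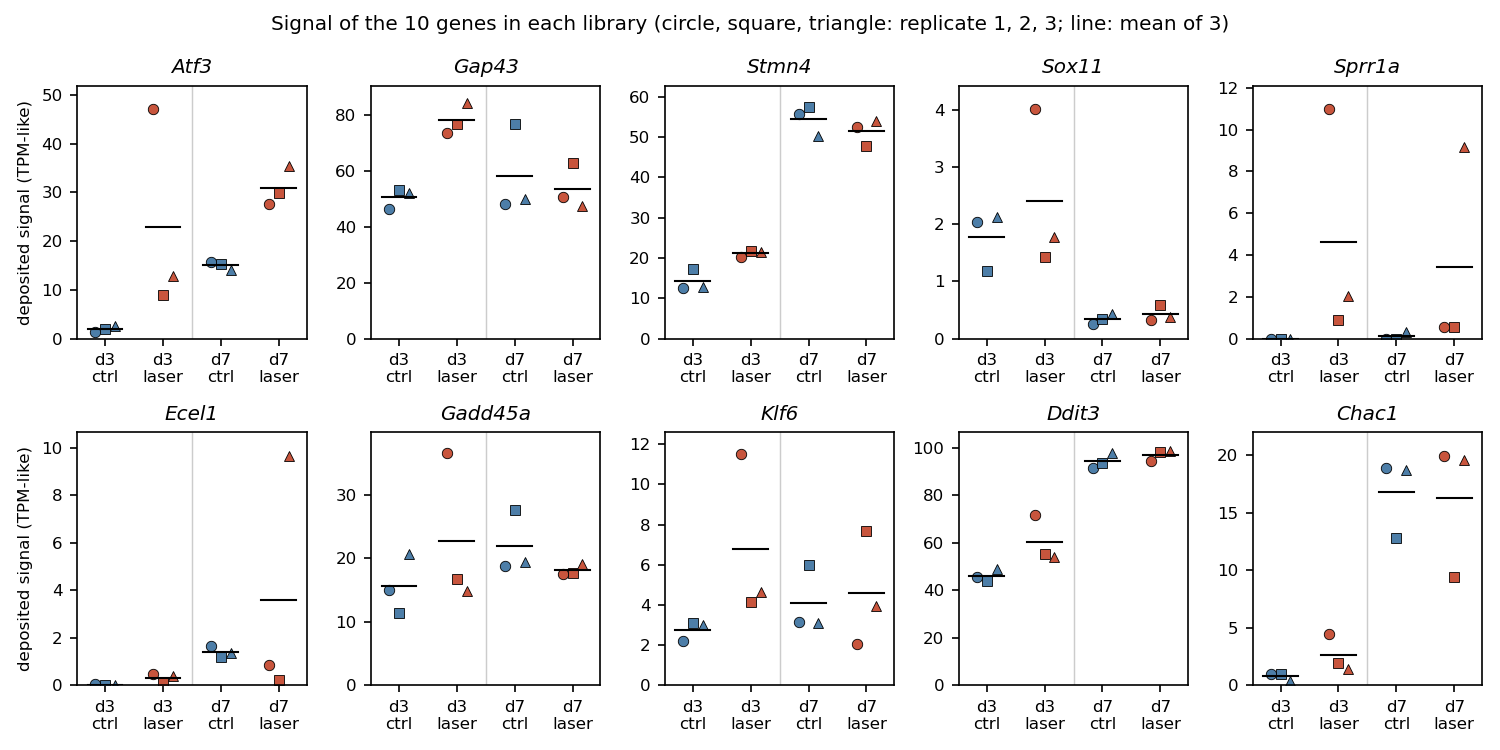
Deposited signal (TPM-like, linear axis from 0) of each of the 10 genes in the 12 libraries, with blue control and red lasered eyes, a different marker for replicates 1, 2 and 3, and a line at the mean of each group. Atf3 and Sprr1a separate the groups on both days, and Gap43, Stmn4, Klf6, Ddit3, Chac1 and Ecel1 do so on day 3 only. Single libraries carry the lasered means of Sprr1a and Ecel1 on day 7.

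Atf3 encodes a stress-induced bZIP transcription factor and lies at chr1:191170296-191218039 on mm10 (minus strand, ENSMUSG00000026628). Its signal on day 3 was 47.1, 8.85 and 12.9 in lasered replicates 1, 2 and 3 and 1.28, 2.0 and 2.61 in the controls. Every lasered library was more than 3 times the highest control, and replicate 1 stood well above the rest. The difference was 2.69 on the log2(signal + 1) scale (SE 0.55, limma adjusted p = 0.0915, unadjusted p = 0.00167), from 128 to 483 reads per lasered and 19 to 29 per control library. Without lasered replicate 1 the difference was 2.01, and Atf3 then passed (limma adjusted p = 0.0148).

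On day 7 Atf3 had a signal of 27.6, 29.9 and 35.3 in lasered and 15.7, 15.2 and 14.1 in control retinas. The groups did not overlap, and the libraries within each were close together. The difference was 0.99 (SE 0.16), with a limma adjusted p of 0.109 and an unadjusted p of 0.000379. With the replicate number as a block the limma adjusted p was 0.0834. The control level itself was 1.96 in the day 3 table and 15.0 in the day 7 table. These tables were normalized separately, so day and table cannot be told apart for any level set across them.

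Sox11 encodes a transcription factor of immature neurons (chr12:27334264-27342574, minus strand, ENSMUSG00000063632). On day 3 its signal was 4.02, 1.42 and 1.77 in lasered and 2.03, 1.18 and 2.12 in control retinas. The groups overlapped, with 1 lasered library above all controls, and the difference of 0.23 had an interval of -0.50 to 0.97 (limma adjusted p = 0.693). Without lasered replicate 1 it was -0.08. On day 7 Sox11 was at 0.326, 0.591 and 0.372 in lasered and 0.261, 0.339 and 0.425 in control retinas, under the minimum mean of 1, and was not tested.

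Klf6 encodes a zinc finger transcription factor that promotes axon growth (chr13:5861482-5870394, plus strand, ENSMUSG00000000078). Its day 3 signal was 11.5, 4.14 and 4.62 in lasered and 2.18, 3.09 and 3.01 in control retinas. The groups did not overlap, with replicate 1 again the highest, and the difference was 0.93 (SE 0.34, limma adjusted p = 0.170). Leaving out that library brought it to 0.53. The day 7 signal was 2.07, 7.68 and 3.96 against 3.16, 5.96 and 3.10, with replicate 2 the highest of each group. The difference of 0.05 had an interval of -0.94 to 1.04.

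Gap43 encodes the neuronal growth cone protein GAP-43 (chr16:42248442-42340651, minus strand, ENSMUSG00000047261). The day 3 signal was 73.5, 76.8 and 84.2 in lasered and 46.3, 53.3 and 52.3 in control retinas. The lasered libraries were close to each other and all above the controls, with replicate 3 and not replicate 1 the highest. The difference was 0.62 (SE 0.13, limma adjusted p = 0.0915), and it was 0.66 without lasered replicate 1 (limma adjusted p = 0.0749). After median-of-ratios and quantile scaling it was 0.39 and 0.40. On day 7 Gap43 was at 50.6, 62.7 and 47.5 in lasered and 48.2, 76.9 and 49.9 in control retinas. The groups overlapped throughout, and the difference was -0.10 (interval -0.60 to 0.41).

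Stmn4 encodes a neuronal stathmin, which destabilises microtubules (chr14:66344296-66361680, plus strand, ENSMUSG00000022044). Lasered retinas of day 3 had a signal of 20.3, 21.6 and 21.4, and controls 12.4, 17.4 and 12.8. The 3 lasered values were close to each other and above all controls. The difference was 0.55 (SE 0.16, limma adjusted p = 0.120), and 0.58 without lasered replicate 1. After median-of-ratios and quantile scaling it was 0.34 and 0.31. By day 7 it was 52.6, 47.8 and 54.1 against 55.7, 57.5 and 50.3, with overlapping groups and a difference of -0.08 (interval -0.38 to 0.22).

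Beside Gap43 and Stmn4, other neuronal genes were uneven on day 3. The ganglion cell list had 2 of 9 tested genes higher at an unadjusted p under 0.05, a share near the 20.7% of all genes, namely the neurofilament genes Nefl (0.77, limma adjusted p = 0.0915) and Nefm (0.73, limma adjusted p = 0.136), with 0 lower. Sncg, the most abundant gene of that list, was 763 ± 79.4 (SD, n = 3) in control and 371, 617 and 727 in lasered retinas. The summed signal of the list was 514 to 882 in lasered and 776 to 925 in control retinas. The part of cell numbers in these values was not tested.

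Sprr1a encodes a small proline-rich protein known from cornified epithelium and from injured neurons (chr3:92483952-92485895, minus strand, ENSMUSG00000050359). It lies among related small proline-rich genes, between which the authors' counting could split reads. Its day 3 signal was 11.0, 0.880 and 2.06 in lasered retinas, from 44, 5 and 9 reads, and 0 in all controls. Since a count of 0 over the 3 controls allows up to 3 reads, the lasered reads were set against 3 control reads. By its share of assigned reads Sprr1a was then 20.6-fold higher in the summed lasered libraries. This allows for counting error in the controls only and takes the lasered reads as exact, so it is not a lower limit like that of an exact interval. Replicate 1 held 44 of the 58 reads, and without it the value was 7.02-fold. The fitted difference was 2.03 (SE 0.62, limma adjusted p = 0.128), and Sprr1a met the minimum mean only through its lasered libraries. Without replicate 1 it fell under that minimum.

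On day 7 Sprr1a had a signal of 0.552, 0.572 and 9.16 in lasered and 0, 0 and 0.317 in control retinas. In reads this was 4, 4 and 77 against 0, 0 and 2. All 3 lasered libraries were above all controls, but replicate 3 held nearly all the reads. The ratio of its shares of assigned reads was 41.0 (exact 95% interval 11.0 to 344, counting error only), while limma over libraries gave 1.41 (SE 0.71, adjusted p = 1.00, unadjusted p = 0.0850). With the replicate number as a block the unadjusted p was 0.031. Without lasered replicate 3 the ratio was 6.08 (1.21 to 58.8), and the gene was under the minimum mean and had no test.

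Because Sprr1a is abundant in surface epithelium, markers of the cornea and conjunctiva were read in the same libraries. Of 10 such markers, 0 reached the minimum mean on either day, and Krt4 and Sprr2d were at 0 in all 12 libraries. On day 3 Krt15 was 0.109, 3.43 and 0.529 in lasered retinas, with a control mean of 0.118. Krt14 was 1.93 in lasered replicate 2, with a control mean of 0.0286. Only Krt12 had a lower mean in lasered than in control retinas that day (0.278 against 0.311). Their summed signal was 2.19 to 7.48 in lasered and 0.670 to 2.45 in control retinas on day 3, highest in replicate 2, where Sprr1a was the lowest of the lasered libraries. On day 7 the sum was 2.39 to 5.11 in lasered and 1.40 to 5.29 in control retinas. In the day 7 lasered replicate 3 that held most Sprr1a reads it was 3.29. The part of surface epithelium in the Sprr1a values was not tested.

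Ecel1 encodes a membrane metallopeptidase that injured neurons induce (chr1:87147655-87156521, minus strand, ENSMUSG00000026247). On day 3 it was near the limit of detection, at 0.480, 0.0851 and 0.368 in lasered and 0.0416, 0 and 0 in control retinas. These values rest on 8, 2 and 7 reads against 1, 0 and 0, a ratio of 18.1 in shares of assigned reads with an exact 95% counting interval of 2.84 to 757. The groups did not overlap, but the gene was under the minimum mean and was not tested. Its day 7 signal was 0.864, 0.216 and 9.66 in lasered and 1.64, 1.18 and 1.37 in control retinas. Lasered replicates 1 and 2 were thus below all controls, and replicate 3 was above them. The difference of 0.27 (SE 0.74) turned to -0.67 without that library.

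The same library held the highest signal of both Sprr1a and Ecel1 on day 7. Among 21935 protein-coding genes ranked by how far lasered replicate 3 stood above the other 5 libraries of the day, Sprr1a was the 1st, with a gap of 2.69 on the log2(signal + 1) scale. Ecel1 was next, at rank 2 with a gap of 2.01, and Serpine3, a serpin, was at rank 3 with 1.51. This ranking was made after the values were seen and is a description with no test. Atf3 was also highest there, with a gap of 0.24 and rank 302, and Ddit3 had a gap of 0.01. Gap43 and Stmn4 were below their control means in it, by -0.26 and -0.01.

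**Figure D2:**
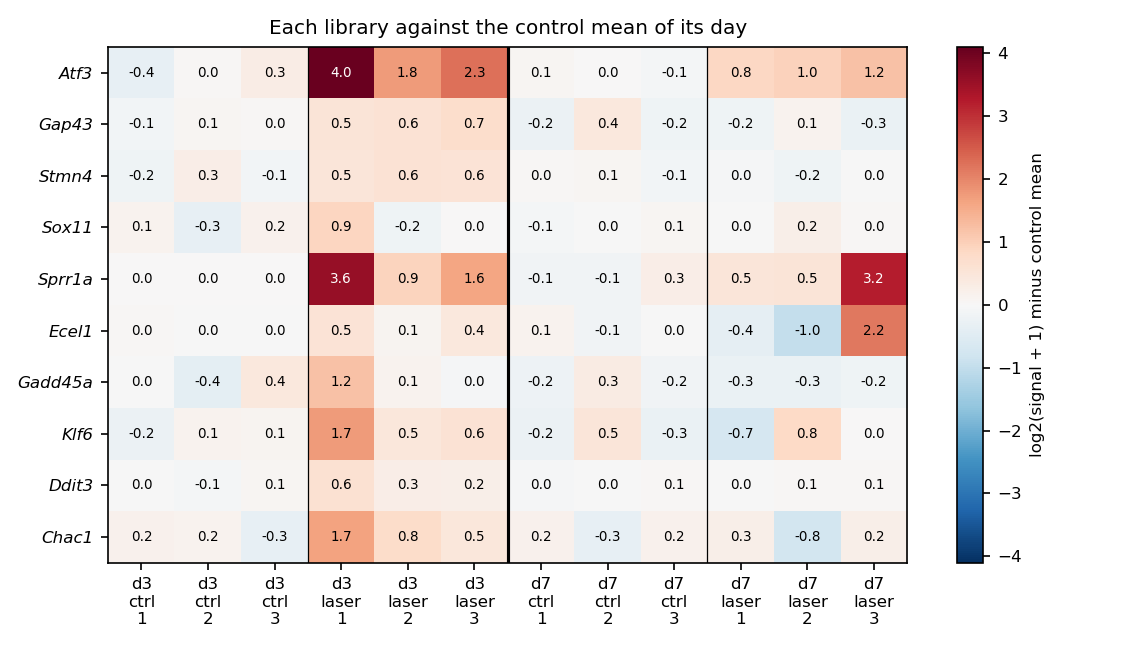
Heat map of each library (columns) against the control mean of its day for each of the 10 genes (rows), in log2(signal + 1), with red above and blue below that mean. Lasered replicate 1 of day 3 is the strongest column for Atf3 (4.0), Sprr1a (3.6), Klf6 and Chac1 (1.7 each), while Gap43 and Stmn4 are even across the day 3 lasered libraries, and replicate 3 of day 7 stands out for Sprr1a (3.2) and Ecel1 (2.2).

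Ddit3 encodes CHOP, a transcription factor of the integrated stress response (chr10:127290774-127296288, plus strand, ENSMUSG00000025408). It was the most abundant of the 3 stress genes of the set, Ddit3, Chac1 and Gadd45a, in both tables. On day 3 its signal was 71.8, 55.5 and 54.1 in lasered and 45.7, 43.9 and 49.0 in control retinas. The groups did not overlap, and the difference was 0.37 (SE 0.15, limma adjusted p = 0.203). It was 0.24 without replicate 1 and 0.15 and 0.14 after median-of-ratios and quantile scaling. On day 7 it was at 94.4, 98.4 and 98.7 against 91.7, 93.7 and 98.1, with a difference of 0.04 and an interval of -0.22 to 0.30. The tables hold a second row with this symbol (ENSMUSG00000116429), with 105 bases of exons inside the same gene, at 0 in all 12 libraries.

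Chac1 encodes an enzyme that degrades glutathione, induced through ATF4 and CHOP (chr2:119351229-119354381, plus strand, ENSMUSG00000027313). The day 3 signal was 4.45, 1.90 and 1.40 in lasered and 0.927, 0.922 and 0.378 in control retinas, from 13 to 36 and 3 to 10 reads. All lasered libraries were above all controls, and the difference was 0.96 (SE 0.34, limma adjusted p = 0.156), or 0.62 without replicate 1. The gene met the minimum mean of 1 only through its lasered libraries, since the control mean was 0.742. Its day 7 signal was 19.9, 9.39 and 19.6 against 18.9, 12.8 and 18.7. Replicate 2 was the lowest of both day 7 groups, and the difference was -0.09 (interval -0.83 to 0.65).

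Gadd45a encodes a sensor of stress and DNA damage tied to growth arrest (chr6:67035096-67037457, minus strand, ENSMUSG00000036390). Its day 3 signal was 36.7, 16.7 and 14.8 in lasered and 15.0, 11.3 and 20.7 in control retinas. Only replicate 1 was above all controls, and the difference of 0.44 (interval -0.41 to 1.29, limma adjusted p = 0.503) was 0.05 without it. The day 7 signal was 17.5, 17.6 and 19.1 against 18.7, 27.7 and 19.3. The difference was -0.25, with an interval of -0.70 to 0.21, and 3 of 3 lasered libraries were below the control mean.

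Counted over the set on day 3, 7 of 9 tested members had an unadjusted p under 0.05 and a higher lasered mean, where 20.7% of the 16786 genes tested did. Groups did not overlap, with lasered higher, in 7 of the 9, against 27.7% of all genes tested. They did not overlap in Ecel1 either, which was not tested and was near the limit of detection, so that share does not apply to it. The median difference of the 9 was 0.62, beside 0.16 for all genes, of which 68.2% were above 0. Sprr1a and Chac1, both among the 7, were tested only because they were high in lasered libraries, so the counts without the minimum mean are given too. All 10 were then above 0 and 8 had an unadjusted p under 0.05 (11.8% of 34387 genes, higher), with a median of 0.59 against 0.07 for all genes. At an adjusted p under 0.05, 0 of 9 members passed, against 0.143% of all genes (24 genes). Rescaling the libraries moved the median of all genes to -0.03 (median of ratios) or -0.07 (quantile normalization). The members' median was then 0.39 and 0.40 with 9 of 9 above 0, but only 4 of 9 had an unadjusted p under 0.05, against 11.9% and 10.8% of all genes (higher). Of all genes with such a p, 3476 of 3861 were higher as deposited, 1999 of 3461 after median-of-ratios and 1805 of 3521 after quantile scaling. Without control replicate 3 the count of members was also 4 of 9, where 18.5% of all genes were higher by that rule.

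On day 7, 1 of 9 tested members, Atf3, had an unadjusted p under 0.05 and a higher lasered mean, where 3.14% of the 15592 genes tested did. With the replicate number as a block, taken to pair the samples on this day, there were 2 of 9, Atf3 and Sprr1a, where 5.74% of all genes had such a p. Groups did not overlap, with lasered higher, in 2 of the 9, Atf3 and Sprr1a, against 6.78% of all genes. Sprr1a met the minimum mean only through lasered replicate 3. Without that minimum 1 of 10 members had an unadjusted p under 0.05 and was higher, where 2.91% of 27674 genes did. The members' median difference was 0.04 beside 0.06 for all genes, with 5 members above 0 and 4 below (61.5% of all genes were above 0). At an adjusted p under 0.05, 0 of 9 passed, against 0.237% of all genes (37 genes).

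The lasered replicates contributed unequally on day 3. Replicate 1 was the highest lasered library for 7 of the 9 tested members, the exceptions being Gap43 (replicate 3) and Stmn4 (replicate 2). Over the 9 members its median difference from the control mean was 1.22, beside 0.59 and 0.57 for replicates 2 and 3. On day 7 the 3 medians were -0.05, 0.06 and 0.06.

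Signs of infiltrating cells were uneven in the same direction. Monocyte and macrophage genes, of which 9 of 10 were tested, summed to 2133, 206 and 275 in lasered replicates 1, 2 and 3 of day 3 and to 40.3 to 46.1 in controls. Neutrophil genes, of which 4 of 6 were tested, summed to 1116, 3.60 and 60.4 in lasered and 1.88 to 3.92 in control retinas. Ccr2 was at 0 in all 3 day 3 controls. Microglial genes, with 10 of 11 tested, summed to 161 to 273 against 44.6 to 53.5. Immediate early genes, which respond to handling, summed to 107, 46.5 and 49.5 against 27.7 to 33.5. The part of these cells in the members' day 3 values was not tested.

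By day 7 the monocyte sum was 101 to 142 in lasered and 15.9 to 30.1 in control retinas and the microglial sum 418 to 502 against 130 to 148. Neutrophil genes were low, at 2.62 to 3.97 against 0.838 to 1.48, with Ly6g and Mmp8 at 0 in all 6 libraries. The mean of Atf3 was 2.06 times its control mean on that day, and the part of microglia and macrophages in it was not tested.

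The change in the laser difference between the days was tested as a day-by-laser interaction in all 12 libraries. All 10 members had a smaller difference on day 7, as did 61.4% of the 17611 genes tested, and the median was -0.66 beside -0.11 for all genes. Sprr1a and Ecel1 met the minimum mean only through lasered libraries. Without that minimum all 10 were again smaller on day 7, with a median of -0.66 beside -0.04 for all 35811 genes. For 3 of them the unadjusted p was under 0.05, against 8.43% of all genes in that direction. These were Stmn4 (-0.63, SE 0.21, limma adjusted p = 0.403), Gap43 (-0.71, SE 0.26, limma adjusted p = 0.448) and Atf3 (-1.69, SE 0.63, limma adjusted p = 0.453). Chac1 had -1.05 with an interval of -2.12 to 0.01, and Klf6 -0.88 with -2.14 to 0.38. At an adjusted p under 0.05, 0 of 10 members passed, where 0.0% of all genes did (0 genes, with 1654 at an unadjusted p under 0.05 in either direction), so a difference between the days was not shown for any member. Without lasered replicate 1 of day 3 the value was -1.01 for Atf3 and -0.47 for Klf6, and it turned from -0.62 to 0.15 for Sprr1a and from -0.08 to 0.01 for Ecel1. Ecel1 was at 1.85 with library weights. Sox11 (-0.15) took the other sign in 2 of 19 alternatives.

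**Figure D3:**
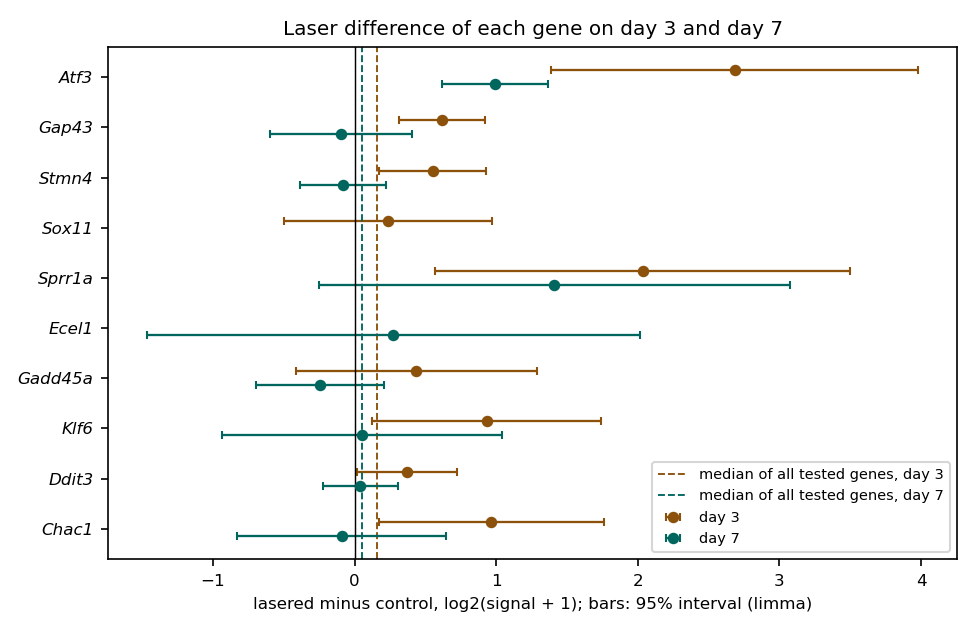
Laser difference of each gene (lasered minus control, log2(signal + 1)) on day 3 (brown) and day 7 (green) with 95% limma intervals, beside dashed lines at the median of all tested genes of each day. All 9 day 3 points lie right of zero and 7 of their intervals exclude it, while on day 7 only the interval of Atf3 does, and Sox11 on day 7 and Ecel1 on day 3 have no point because they were not tested.

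Other genes of the pathways these members belong to were read from 5 lists, and 0 genes of any list passed an adjusted p of 0.05 on either day. In the axon regeneration program 8 of 23 tested genes had an unadjusted p under 0.05 and were higher on day 3 (20.7% of all genes), with a median of 0.36 beside 0.16 for all genes. Tubb6, a beta-tubulin, was 104, 17.7 and 26.5 in lasered and 3.45 ± 0.741 (SD, n = 3) in control retinas (3.10, limma adjusted p = 0.0883). Tnfrsf12a, the TWEAK receptor, was 102, 32.2 and 49.2 against 15.3 ± 2.48 (1.78, limma adjusted p = 0.0915). Both were highest in replicate 1, as Atf3 was. The list is not neuronal throughout: Arg1, also a macrophage gene, was 114 in replicate 1 and 1.73 and 2.41 in the others.

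On day 7, 2 of 24 genes of that program were higher and 1 was lower at an unadjusted p under 0.05 (3.14% and 0.795% of all genes), with a median of -0.04. Cd44, a hyaluronan receptor of glia and immune cells, was 6.18, 13.3 and 7.38 against 2.73 ± 0.623 (SD, n = 3; 1.36, limma adjusted p = 0.363). Basp1, a growth cone protein related in function to GAP-43, was 184, 156 and 184 against 228 ± 19.8 (-0.38, limma adjusted p = 1.00). It was thus below its controls in 3 of 3 lasered libraries.

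Of the kinases and partners of DLK and JNK signalling, 1 of 12 was higher on day 3 at an unadjusted p under 0.05 (20.7% of all genes) and 0 of 12 on day 7 (3.14%). The median was 0.16 and 0.01, beside 0.16 and 0.06 for all genes. Mapk8, which encodes JNK1, was 8.44, 8.15 and 9.76 in lasered and 5.97 ± 1.16 (SD, n = 3) in control retinas on day 3 (0.50, limma adjusted p = 0.151). Mapk8ip3, a JNK scaffold, was at 0.43 on day 3 and -0.17 on day 7, with overlapping groups on both. Sarm1, the NAD-cleaving executor of axon degeneration, was at -0.18 on day 7, also with overlapping groups.

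The integrated stress response, the arm of Ddit3 and Chac1, had 11 of 25 tested genes higher on day 3 at an unadjusted p under 0.05 (20.7% of all genes), with a median of 0.56. Nupr1, a stress-induced nuclear protein, was 1282, 259 and 308 in lasered and 40.5 ± 8.62 (SD, n = 3) in control retinas (3.52, limma adjusted p = 0.0883). Slc3a2, the heavy chain of several amino acid transporters, was 57.0, 34.6 and 29.7 against 16.2 ± 3.74 (1.24, limma adjusted p = 0.0938). On day 7 only 1 of 24 was higher by that rule (3.14% of all genes), Nupr1 (0.66, limma adjusted p = 1.00), and the median was 0.07. Atf5, a factor related to ATF4, was at -0.49 with overlapping groups.

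In the unfolded protein response of the endoplasmic reticulum, 9 of 16 genes were higher on day 3 at an unadjusted p under 0.05 (20.7% of all genes), and 16 of 16 were above 0 (68.2% of all genes), with a median of 0.61. Sdf2l1, an endoplasmic reticulum chaperone component, was 12.7, 8.74 and 5.15 against 2.13 ± 0.709 (SD, n = 3; 1.61, limma adjusted p = 0.0903). Dnajb9, a co-chaperone of BiP, was 14.7, 8.77 and 9.09 against 5.25 ± 0.645 (0.89, limma adjusted p = 0.0967). On day 7, 0 of 16 had such a p, and Sdf2l1 and Herpud1 were at 0.20 and 0.17 with overlapping groups.

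Among p53 and growth arrest genes, the relatives of Gadd45a, 8 of 13 were higher on day 3 at an unadjusted p under 0.05 (20.7% of all genes) and the median was 0.95. Gadd45b, the paralogue of Gadd45a, was 26.5, 9.46 and 10.5 in lasered and 0.881 ± 0.345 (SD, n = 3) in control retinas. Its difference of 3.01 came closest to the threshold of any gene in the 5 lists (limma adjusted p = 0.0503), while that of Gadd45a was 0.44. Fas, the death receptor, was 76.5, 8.70 and 12.1 against 1.86 ± 0.237 (2.91, limma adjusted p = 0.0977). On day 7, 2 of 12 were higher by that rule (3.14% of all genes). They were Gadd45b, at 55.5, 41.4 and 57.5 against 24.8 ± 3.68 (1.02, limma adjusted p = 0.183), and Phlda3, a p53 target, with 0.59 (limma adjusted p = 0.891). Gadd45b, like Atf3, had day 7 groups that did not overlap.

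**Figure D4:**
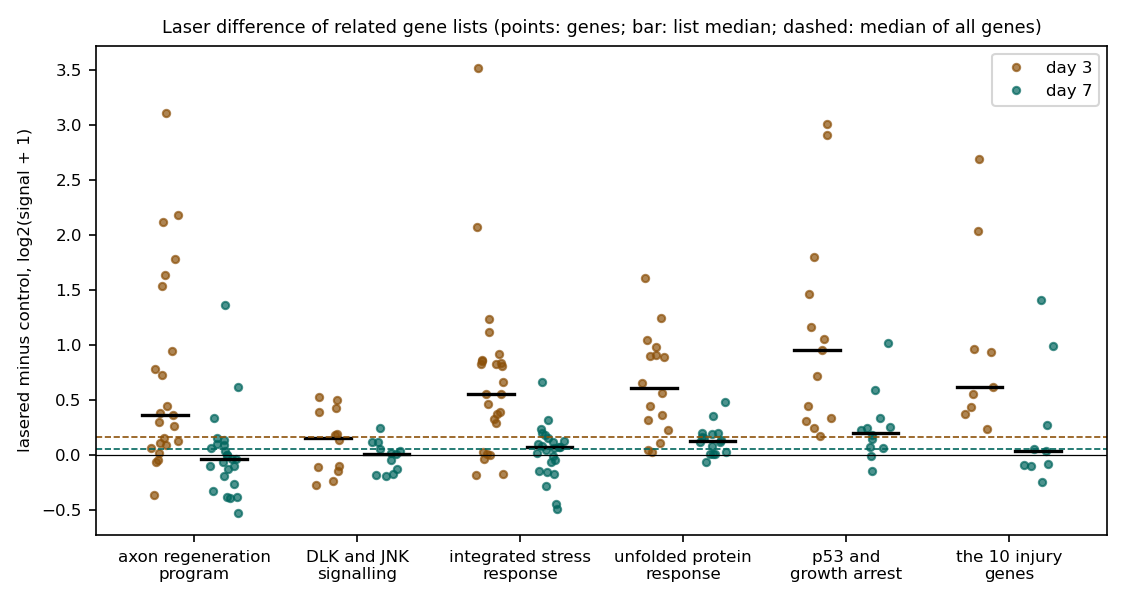
Laser difference (log2(signal + 1), lasered minus control) of each tested gene in 5 related lists and in the 10 injury genes, on day 3 (brown) and day 7 (green), with a bar at each list's median and dashed lines at the median of all genes. On day 3 the medians run from 0.16 (DLK and JNK signalling) to 0.95 (p53 and growth arrest) and on day 7 from -0.04 to 0.20.

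By signal, which is scaled for gene length, the members ranked in day 3 controls from Gap43 (50.6) and Ddit3 (46.2) through Gadd45a (15.7) and Stmn4 (14.2) to Klf6 (2.76), Atf3 (1.96), Sox11 (1.78), Chac1 (0.742), Ecel1 (0.0139) and Sprr1a (0). Gap43 and Ddit3, Gadd45a and Stmn4, Klf6 and Atf3, Atf3 and Sox11, and Ecel1 and Sprr1a were neighbours whose control libraries overlapped. In day 7 controls Ddit3 was the highest (94.5), ahead of Gap43 (58.3) and Stmn4 (54.5), which overlapped. Then came Gadd45a (21.9), Chac1 (16.8) and Atf3 (15.0), each overlapping the next. Klf6 (4.07), Ecel1 (1.40), Sox11 (0.342) and Sprr1a (0.106) were low, and the last 2 overlapped. The control levels of Ecel1, Chac1 and Atf3 were far higher in the day 7 table and that of Sox11 was lower, which is described with no test.

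Over the 12 libraries, each centred on the mean of its day, members differed in how alike their patterns were. Pearson's r was 0.93 between Atf3 and Ddit3, 0.85 between Atf3 and Sprr1a and 0.73 between Gap43 and Stmn4, but 0.18 between Gap43 and Chac1. Outside the set, among 12908 genes, Atf3 was most like Glipr2 and Ndp (0.99 each), Ddit3 like Wbp1l (0.99) and Arhgef2 (0.98), and Klf6 like Pabpc1 and Krcc1 (0.98 each). Chac1 was most like Uap1l1 (0.97) and Dbn1 (0.96), and Sprr1a like P2ry6 (0.95) and Plscr1 (0.92). Stmn4 was nearest to Tceal6 (0.96) and Tradd (0.95), Gap43 to Zfp3 (0.95) and Cux1 (0.91), and Gadd45a to Ak3l2-ps and Lmnb1 (0.94 each). These are descriptions, since the points share the laser groups, and the strong lasered replicate 1 of day 3 is among them.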

How the data were processed

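Poly(A) RNA of retina was sequenced from a directional library kit, per the labels' protocols, and STAR 2.7.0, edgeR 3.28.0 and mm10 are named per the submitters' processing notes. Which tool counted reads is not stated there. For each gene the authors deposited a signal named TPM; library sums ran from 953049 to 1045986, so it is not strict TPM, which the design had assumed. The same test was kept.

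From the values alone, each was found to be divided by a factor cycling over 6 values with table position (0.918 to 1.09 on day 3, 0.915 to 1.093 on day 7). Undoing it brought every library to 1000000, and with GENCODE M21 exon lengths 98.9% to 99.2% of values under 20 reads came out whole within 0.05 (chance gives 10%). The factor moved a group by at most 0.10 (log2).

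Within each day, limma 3.58.1 (R 4.3.3; trended eBayes, 2-sided) was run on log2(signal + 1), keeping genes whose mean was 1 or more in the 6 libraries (12 for the interaction), adjusted by Benjamini-Hochberg over all of them, and tested on simulated data. This scale understates changes of low genes. The rest used matplotlib 3.10.9, NumPy 2.4.6, pandas 2.3.3 and Python 3.11.15. All 10 members are named, with, per list and day, genes past the threshold or else the 2 smallest p-values, and per member tested on both days the 2 most alike genes; other genes named, markers included, were picked after their values were seen. Members and lists were chosen with earlier results of these data known. Of columns, 0 lacked a sample.

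The left eye is the control of the same mouse's right eye per the labels, which do not tie equal numbers to 1 mouse. Deviations from group means correlated between equal numbers by 0.485, 0.559 and 0.128 on day 7, so the numbers were taken to pair the samples there, and by 0.041, 0.016 and 0.077 on day 3, where they were not. Each of these day 3 values was above those of all unequal numbers (-0.058 to 0.014), though all were small, so pairing on day 3 is not settled either. On day 7 lasered replicate 3 correlated more with control replicate 1 (0.205), so the day 7 pairing is not certain. Day 7 differences, errors and intervals are from the fit without the block unless the block is named.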

Additional observations from a re-analysis of the deposited data

How the results depend on the processing

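The count of members past the threshold was 0 in each comparison and stayed 0 without a filter, with a minimum mean of 5, a pseudocount of 0.1, median-of-ratios or quantile scaling, the cycling factor undone and voom on recovered reads (the last 2 chosen after seeing the data). Library weights gave 2 on day 3 (Atf3 and Gap43), 1 on day 7 (Atf3, adjusted p = 0.0184) and 1 in the difference between the days (Gap43, adjusted p = 0.0218). Leaving out 1 library gave 0 to 1 on day 3 (1 only without lasered replicate 1) and 0 to 0 on day 7 and in the difference. Over all alternatives the adjusted p of Atf3 ran from 0.0148 to 0.301 on day 3 and from 0.0184 to 0.665 on day 7, and that of Gap43 from 0.0448 to 0.301 on day 3. Members whose difference took the other sign were Sox11 on day 3 (2 of 14 alternatives) and on day 7 Klf6 (6 of 14), Ecel1 (4 of 14), Ddit3, Chac1 and Gap43 (2 of 15 each) and Stmn4 (1 of 15); between the days they were Ecel1 (4 of 19), Sox11 (2 of 19) and Sprr1a (2 of 20). The cause was not tested. The replicate block called 0 members on either day and 0 in the difference. Over all genes it gave 0 calls on day 3 and 53 on day 7, where the fit without it gave 25 and 38. Calls over all genes on day 3 were also 0 without a filter or without any 1 control, 294 without lasered replicate 1, 1 without lasered replicate 3, 13 with voom, 14 and 12 with the 2 scalings and 369 with weights. On day 7 they were 13 without a filter, 18 with voom, 24 with median-of-ratios scaling, 114 with weights, 6 to 41 without lasered or control replicate 1 or 2, and 0 without lasered or control replicate 3. Between the days they were 28 without a filter and 1119 with weights, against 0. Depth limits Sprr1a, Ecel1 and Chac1 on day 3, which rest on 44 reads or fewer per library.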

Other observations

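Genes of retinal ganglion cells, the neurons best known for the injury program, were read on day 7 as well. Of 11 ganglion cell genes tested, 1 was above 0 (61.5% of all genes) and the median was -0.16, beside 0.06 for all genes. At an unadjusted p under 0.05, 0 of 11 were higher and 0 of 11 lower (3.14% and 0.795% of all genes). The neurofilament gene Nefh was 102, 91.2 and 103 in lasered and 129 ± 23.0 (SD, n = 3) in control retinas (-0.37, limma adjusted p = 1.00). It was the only gene of the list whose groups did not overlap. Nefm was at -0.56 and Thy1, a surface glycoprotein of ganglion cells, at -0.14, both with overlapping groups. The summed signal of the list was 1062 to 1327 in lasered and 1330 to 1388 in control retinas.

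Immediate early genes were high in all day 7 libraries, at 443 to 619 in lasered and 483 to 643 in control retinas, against 27.7 to 33.5 in the day 3 controls. Atf3 and Chac1 had higher control levels in the day 7 table as well. Other genes also shifted between the tables, some up and some down. Control means on day 3 and day 7 were 9.34 and 390 for Thy1, 127 and 11.1 for Hsp90b1, and 1.78 and 0.342 for Sox11. Handling, day and table cannot be told apart here.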
